A study of Homo sapiens with 24 samples.

Results

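Cytokines, chemokines and growth factors are secreted or membrane-bound proteins through which fibroblasts signal to each other and to their neighbours. The members described here were chosen by gene name: every probe of the array's catalog (mRNA) category whose gene belongs to the CXC or CC chemokines, interleukins and colony-stimulating factors, TNF superfamily, TGF-beta, EGF, FGF and WNT families, angiogenic factors, or the IGF axis. The rule took 90 genes, measured by 103 probes, of the 15102 catalog genes with 17448 usable probes. It also takes in IGF-binding proteins and angiopoietin-like proteins, which modulate or resemble ligands. Well-known members such as IL8, CCL2, IL1B, LIF, HBEGF, GDF15 and TGFB1 had no catalog probe that was used and are not analysed here.

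MRC5, an established line of lung fibroblasts of human origin, was left untreated (control) or exposed for 2 hr to 0.2 mM hydrogen peroxide, an oxidative stress abbreviated OS. Total RNA was measured, and so was RNA pooled from a sucrose gradient that separates transcripts by the number of ribosomes bound. The 8 groups were control and OS total RNA, control and OS untranslated pools (fractions 1 to 9), control and OS low pools of light polysomes (fractions 10 to 14), and control and OS high pools of heavy polysomes (fractions 15 to 23). Each group held 3 arrays, 24 in all, and each of the 3 slides carried 1 array of every group. The study's methods describe independent RNA preparations, though the labels of control untranslated arrays 1 and 2 share a number.

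Chemokines attract leukocytes along a concentration gradient, while interleukins, TNF-type ligands, FGF, WNT and TGF-beta proteins act on receptors that control growth, survival and matrix production. Fibroblasts release many of them after injury, and several of these transcripts are short-lived, with AU-rich elements that are bound by decay factors such as ZFP36. Because secretion needs new protein, the place of such a transcript on a polysome gradient matters as well as its amount.

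Values are log2 of the normalized array signal. A level of one probe is not comparable with that of another probe, and a level in one pool is relative to the other transcripts of the same pool, since every array was given the same distribution. One array stood apart before any comparison was made. On OS low replicate 3, 95.4% of the mRNA probes and 98 of the 103 member probes were well above background, against 43.4% to 67.7% and 35 to 65 on the other 23 arrays. Its mean correlation with the other arrays of its group was 0.834, while that of the other arrays ran from 0.912 to 0.993. The array was kept, as nothing in the labels sets it aside, and counts of called probes over all members and over each list are given with and without it. It enters every test through the shared estimate of spread and the shared normalization.

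Over the other 23 arrays, 30 member probes of 27 genes were well above background on every array. A further 33 probes of 32 genes reached that level on all arrays of at least 1 group, 13 probes on some arrays but no whole group, and 27 probes of 24 genes on none. Among the genes with a probe well above background on none of the 23 arrays were IL6, the main inducer of the acute-phase response, the granulocyte factor CSF3, the neutrophil chemokine CXCL6, the monocyte chemokine CCL7, CCL5 and the osteoclast factor TNFSF11. IL6 measured 4.12, 4.42 and 4.43 in control total RNA and 3.33, 3.88 and 3.29 upon OS, all below detection. The IL6 and CXCL6 probes were not matched to a current symbol, and neither were the CXCL16 probe and the FGF1 probe A_33_P3242136. That FGF1 probe is listed under a noncoding RefSeq transcript. By role, 6 of 16 FGF probes, 5 of 9 angiogenic probes, 3 of 4 IGF axis probes and 3 of 9 WNT probes were on every one of the 23 arrays, and so were 2 of 14 CC chemokine probes, 4 of 23 interleukin and colony-stimulating factor probes and 1 of 11 TGF-beta family probes. Both probes of AREG, the only measured EGF family member, 2 of 9 CXC chemokine probes and 2 of 6 TNF superfamily probes were also on all 23.

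The cell label was checked against markers. Of 11 listed fibroblast markers, 4 were measured, COL1A1, COL3A1, LUM and THY1, and all 4 were well above background on all 23 arrays. In total RNA, mean COL1A1 was 17.80 ± 0.04 (SD, n = 3) in control cells and 17.48 ± 0.04 upon OS, and THY1 was 15.84 ± 0.02 and 15.83 ± 0.01. The epithelial keratin KRT5, the endothelial markers EMCN and VWF, and 2 of 3 probes of the leukocyte marker PTPRC were on none of the 23 arrays. The epithelial marker CLDN4 and the other PTPRC probe were on 22, the endothelial marker CDH5 on 19 and the epithelial EPCAM on 7.

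Promoter windows were searched because several CXC chemokines lie side by side on chromosome 4 and are classical NF-κB targets. RefSeq windows on GRCh38.p14, from 250 bases before to 50 bases after a transcript start, were listed for 59 of the 90 genes (78 windows). Both strands were searched for the NF-κB consensus, AP-1 (TGANTCA), the cyclic AMP element CRE (TGACGTCA), the antioxidant element ARE (TGAC, any 3 bases, GC) and TATAAA. The NF-κB consensus was found in 16 member windows and in 11.3% of all 35116 windows. AP-1 was found in 6 (7.71% of all windows), CRE in 2 (1.85%), ARE in 13 (13.3%) and TATAAA in 19 (11.5%). The windows of 4 chemokine genes carried the same NF-κB match, shown here with the match in capitals because CXCL1, CXCL2 and CXCL5 are followed through the results. The windows lie at chr4:73869304-73869333 (CXCL1, plus strand), chr4:74099254-74099283 (CXCL2, minus), chr4:73998749-73998778 (CXCL5, minus) and chr4:73836578-73836607 (CXCL6, plus).
CXCL1: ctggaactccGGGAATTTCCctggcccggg
CXCL2: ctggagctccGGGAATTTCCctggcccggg
CXCL5: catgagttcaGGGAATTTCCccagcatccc
CXCL6: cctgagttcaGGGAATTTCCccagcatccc
The IL32 window held an NF-κB match (chr16:3065294-3065323, plus strand) and a CRE match (chr16:3065271-3065300), and the AREG window held a CRE match (chr4:74445060-74445089, plus strand), again in capitals.
IL32, NF-κB: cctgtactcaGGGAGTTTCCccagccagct
IL32, CRE: tcccacttggcTGACGTCAccttcctgtac
AREG, CRE: cggccgggcctTGACGTCAtgggctgcggc
A match is a description of letters only and says nothing about binding in these cells.

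The first comparison asked how OS changed the amount of each transcript in total RNA. CXCL2, a chemokine that attracts neutrophils, and IL32, an intracellular and secreted inducer of inflammatory cytokines, were called higher upon OS, and no member was called lower. These were 2 higher and 0 lower of 53 tested member probes by limma (7 higher and 3 lower at unadjusted p under 0.05), where 3.07% of the 10630 tested mRNA probes were called higher and 3.06% lower. The median difference was 0.05 over the tested members and -0.02 over the mRNA probes. Leaving out OS low replicate 3 gave 5 members higher and 0 lower, with 13.4% of mRNA probes called in either direction. The 3 added were AREG, TNFSF9 and VEGFA. The count of 2 fell to 0 without OS total replicate 3 (8 at unadjusted p under 0.05) and to 1 without control total replicate 1 or 3 or OS total replicate 2. It was 1 when a probe had to be well above background in both groups, since CXCL2 was not tested then. In such bulk RNA, a change in the amount per cell and a change in the number of cells that hold the transcript cannot be told apart.

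In total RNA, CXCL2 (probe A_23_P315364, chr4:74962985-74963044 on GRCh37) measured 5.79, 5.37 and 5.10 in control cells, well above background on 2 of the 3 arrays, and 7.09, 6.77 and 7.66 upon OS. All 3 OS arrays lay above all 3 control arrays, but CXCL2 entered this test through its OS arrays alone. The difference was 1.76 ± 0.42 (SE), 3.38-fold, with adjusted p = 0.0121, and 1.30, 1.40 and 2.56 within slides 1, 2 and 3. The call ended without control replicate 3 (1.58, adjusted p = 0.0654) or OS replicate 3 (1.51, adjusted p = 0.0777), and another background correction, normexp, gave 0.86 (adjusted p = 0.00654). IL32 (A_23_P15146) measured 9.63, 9.74 and 9.69 in control cells and 10.25, 10.30 and 10.19 upon OS. The groups did not overlap, and the spread within each was small. The difference was 0.56 ± 0.15 (adjusted p = 0.0238), with 0.62, 0.56 and 0.50 within the slides. Leaving out any 1 of the 6 total RNA arrays ended this call, with adjusted p from 0.0572 to 0.0908, as did scaling to the 75th percentile (adjusted p = 0.0607) and testing dim probes too (adjusted p = 0.0594).

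TNFSF9, the ligand of the T-cell costimulatory receptor 4-1BB, measured 5.66, 5.84 and 5.31 in control total RNA and 7.62, 7.47 and 7.29 upon OS. All OS arrays were higher, yet the difference of 1.86 ± 0.61 had adjusted p = 0.0743. Without OS low replicate 3 it was 1.91 (adjusted p = 0.00141), with 75th percentile scaling 2.11 (adjusted p = 2.95e-05), and with normexp 0.89 (adjusted p = 0.133). VEGFA, the main angiogenic growth factor, measured 8.59, 8.43 and 8.40 against 9.43, 9.52 and 9.07 upon OS. The groups did not overlap. The difference of 0.87 ± 0.60 had adjusted p = 0.579, or 0.0488 with 75th percentile scaling and 0.000926 without OS low replicate 3, an array that holds no total RNA but enters the normalization and the shared spread. VEGFA measured 5.50 on that array, against 9.23 and 9.10 on the other OS low arrays.

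AREG (amphiregulin), an EGF receptor ligand, had 2 probes. The brighter, A_23_P259071, measured 7.64, 11.09 and 11.03 in control total RNA and 11.85, 11.85 and 11.49 upon OS. Control replicate 1 was far below the other control arrays on this probe, while the second probe, A_33_P3419190, measured 10.04, 9.56 and 9.50 in the same samples and 10.35, 10.27 and 9.91 upon OS. The brighter probe gave 1.82 ± 0.58 (adjusted p = 0.0679), and 0.68 (adjusted p = 0.182) without control replicate 1. It passed the test with normexp (1.66, adjusted p = 0.0287) and without control replicate 2 (2.40, adjusted p = 0.0193) or 3 (2.37, adjusted p = 0.0235). The second probe gave 0.48 (adjusted p = 0.27), so the size of the AREG difference rests on 1 array. ANGPT2, an antagonist ligand of the endothelial receptor TIE2, and IL19, an IL-10 family cytokine, were well above background on all 3 OS total arrays and on no control total array. Neither passed the test (adjusted p = 0.423 and 0.267), which both entered through their OS arrays alone. With the spread of only the total RNA arrays IL19 had adjusted p = 0.0226, which for that reason is not read as a change. ANGPT2 and IL19 were the only members with this pattern of detection, and are named for it after the values were seen.

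Other growth factors showed no called change in total RNA. VEGFC, a lymphatic growth factor, measured 15.28, 15.22 and 15.27 in control cells and 14.93, 14.88 and 15.01 upon OS (adjusted p = 0.188). PDGFC, a mitogen for fibroblasts, measured 12.55, 12.52 and 12.36 against 12.31, 12.25 and 12.24 (adjusted p = 0.376). In both genes every OS array was below every control array. BMP2, an osteogenic TGF-beta family ligand, measured 10.64, 10.44 and 10.44 against 10.32, 10.34 and 10.22 (adjusted p = 0.915), again without overlap. ANGPT1, which activates TIE2, differed by -0.09 (adjusted p = 0.948). CSF1, the macrophage growth factor, measured 8.25, 7.65 and 7.35 against 7.89, 7.80 and 7.53. Its groups overlapped as well. CSF2, the granulocyte-macrophage factor, measured 5.90, 6.07 and 6.25 against 5.55, 5.77 and 5.66 (adjusted p = 0.887). When the spread was taken only from the 6 total RNA arrays, a setting added after the data were seen, 12 members were called, 7 higher and 5 lower. No share of all mRNA probes is given for this setting, so the count cannot be set beside one. The 7 higher were CXCL2, FGF20, IGFBP6, IL19, IL32, TNFSF9 and VEGFA, and the 5 lower were WNT5A, IGFBP5, CSF2, VEGFC and IL37.

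**Figure D1:**
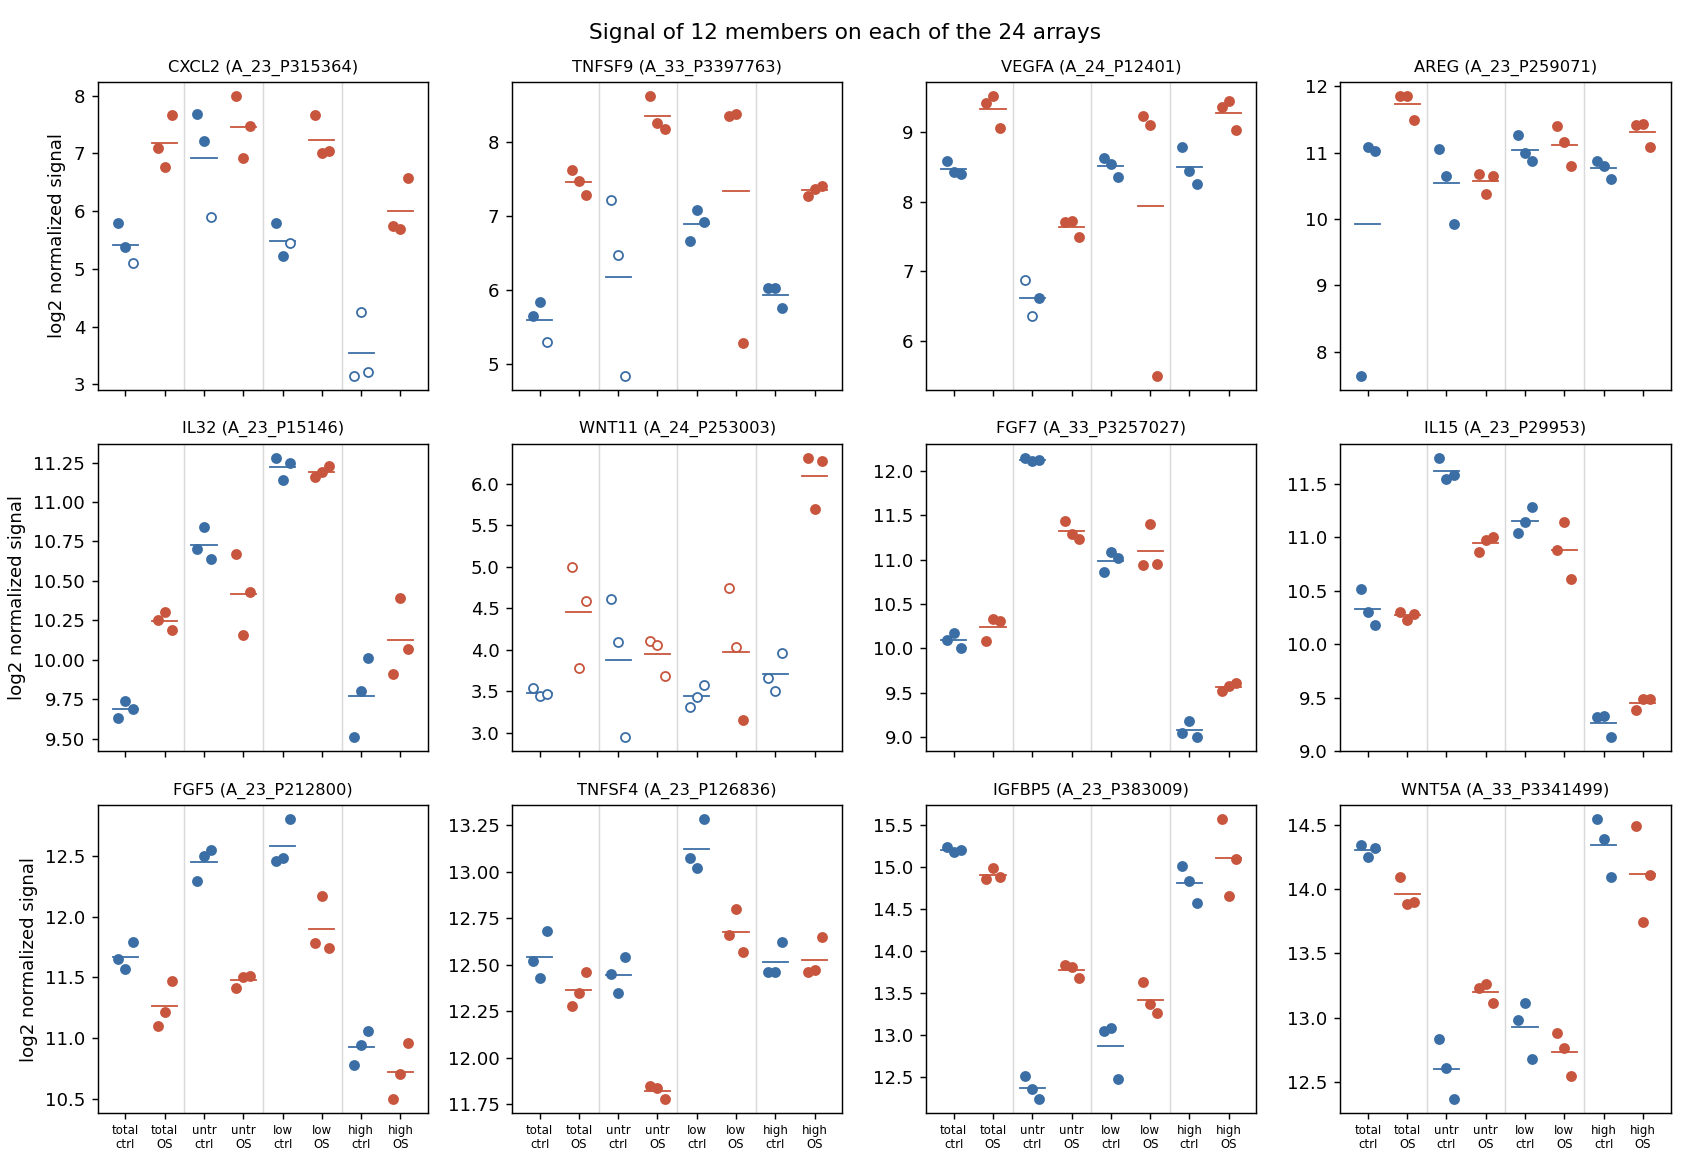
Log2 normalized signal (vertical axes) of members on each array in the 8 groups (horizontal axes; blue, control; red, OS; filled points, well above background; open points, not; lines, group means). CXCL2 is higher upon OS in total RNA, where control arrays lie between 5.10 and 5.79 and OS arrays between 6.77 and 7.66; levels are comparable within a panel only.

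The second comparison set the high against the untranslated pool in control cells, to see where each transcript lay on the gradient. ANGPTL4, VEGFA, WNT5A, WNT5B and IGFBP5 were among the members that were higher in heavy polysomes, while FGF1, FGF5, FGF7, IL15, IL24 and CXCL16 were lower there than in the untranslated pool. Of 47 tested member probes, 11 were called higher and 22 lower, where 42.2% of 9880 tested mRNA probes were called higher and 31% lower. The median difference was -0.57 over the tested members and 0.35 over the mRNA probes. Without OS low replicate 3 the counts were 12 and 24, with 82.1% of mRNA probes called in either direction. These counts depend on how pools are scaled to each other: quantile normalization over all probe categories together gave 16 higher and 13 lower (medians 0.07 over members and 1.06 over mRNA probes), and 75th percentile scaling 9 higher and 28 lower (medians -1.12 and -0.10). Called mRNA probes were 5505 higher and 2006 lower with the former and 3539 and 3845 with the latter. The filter favours probes that are bright in 1 pool and dim in the other, so the counts describe the tested probes alone.

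Among CXC chemokines, CXCL5, a neutrophil attractant, measured 7.40, 7.57 and 7.17 in the control high pool and was not well above background on any control untranslated array. For such probes only a bound is given, the brighter group's mean against, on each dimmer array, the lowest signal well above background there or the probe's own if higher. CXCL5 was at least 1.63-fold higher in the high pool (adjusted p = 1.13e-05). CXCL1, its close relative, lay the other way. Its probe A_23_P7144 measured 7.87, 7.20 and 7.07 in the untranslated pool and was not well above background on any high-pool array, at least 4.28-fold lower there (adjusted p = 2.72e-07), though less than that bound with normexp. CXCL16, a membrane-anchored chemokine, measured 10.51, 11.47 and 10.91 in the untranslated pool and 7.97, 7.76 and 7.74 in the high pool, without overlap. Its difference was -3.14 ± 0.64 (adjusted p = 0.000291). CXCL12, the ligand of CXCR4, was called lower by -0.57 ± 0.22 (adjusted p = 0.0275), but the direction turned to 0.37 (adjusted p = 0.353) when all probe categories were normalized together. Without OS low replicate 3 that setting gave 0.38 (adjusted p = 0.0214), a call in the opposite direction. The call of CXCL12 as lower was lost without control untranslated replicate 1 (adjusted p = 0.0561) or 2 (0.0764). It was also lost without control high replicate 1 (0.0592), 2 (0.0541) or 3 (0.0644), while the difference in these fits stayed between -0.57 and -0.53. It was lost too with dim probes tested (adjusted p = 0.0818) and with control untranslated arrays 1 and 2 averaged (0.0646), and the value was -0.95 with 75th percentile scaling and -0.37 with normexp.

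Of 9 tested probes of interleukins and colony-stimulating factors, 6 were called lower in the high pool, all of interleukins, and none higher (7 lower without OS low replicate 3). CSF1 (0.34) was not called, nor was CSF2, which was well above background on no control untranslated array. IL15, which sustains natural killer and memory T cells, measured 11.74, 11.54 and 11.58 in the untranslated pool and 9.32, 9.33 and 9.13 in the high pool. The gap was many times the spread, at -2.36 ± 0.13 (adjusted p = 1.09e-11). IL24, a cytokine of the IL-10 family, measured 10.80, 10.64 and 10.10 against 6.59, 6.54 and 6.43 on its brighter probe, again without overlap. That probe gave -3.99 ± 0.24 (adjusted p = 4.4e-11), and the dimmer one was at least 5.73-fold lower. IL26, of the same family, was at least 3.83-fold lower in the high pool (adjusted p = 0.0011). With normexp the dimmer IL24 probe and IL26 differed by less than these bounds. IL27 differed by -2.20 ± 0.56 (adjusted p = 0.00204), or -1.43 with normexp and -1.36 with all categories normalized together.

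In the FGF family, 1 of 7 tested probes was called higher and 5 lower. FGF7, a keratinocyte growth factor made by stromal cells, measured 12.15, 12.11 and 12.13 in the control untranslated pool and 9.05, 9.18 and 9.00 in the high pool. The difference was -3.05 ± 0.12 (adjusted p = 2.44e-13). FGF1, a mitogen without a classical signal peptide, measured 11.81, 11.60 and 12.14 against 7.56, 7.88 and 7.97 on probe A_23_P213336 (-4.05 ± 0.20). Its probe A_24_P251969 gave -1.97 ± 0.65, which was -1.14 (adjusted p = 0.138) with all categories normalized together and -1.16 with normexp. The former setting without OS low replicate 3 gave -1.18 (adjusted p = 6.97e-06). The remaining probe, A_33_P3242136, was not called (-0.67 ± 0.55, adjusted p = 0.292). FGF5, a mitogen that also restrains hair growth, gave -1.52 ± 0.15 and -1.54 ± 0.17 on 2 of its 3 probes, or -0.98 and -0.94 with all categories together. FGF2, which like FGF1 lacks a signal peptide, went the other way, measuring 9.11, 8.65 and 8.37 in the untranslated pool and 10.57, 10.46 and 10.51 in the high pool. FGF2 was the called-higher probe of the family, at 1.80 ± 0.39 (adjusted p = 0.000498).

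Of 5 tested WNT probes 2 were called higher and 2 lower. WNT5A and WNT5B, which signal mainly without beta-catenin, were higher in the high pool. WNT5A measured 12.83, 12.61 and 12.37 in the untranslated pool and 14.54, 14.39 and 14.09 in the high pool, a difference of 1.74 ± 0.18 (adjusted p = 7.59e-08). WNT5B gave 2.09 ± 0.16 (adjusted p = 1.21e-09), with 11.11, 10.81 and 10.79 against 13.16, 12.98 and 12.83. Neither gene's groups overlapped. WNT10B, an activator of beta-catenin signalling, went the other way at -2.60 ± 0.48 (adjusted p = 0.000114). Of 7 tested angiogenic probes, 5 were called higher and 0 lower, and ANGPT1 (0.17) and ANGPTL6 (0.02) were not called. ANGPTL4, an inhibitor of lipoprotein lipase, measured 12.54, 12.37 and 12.20 against 14.95, 14.50 and 14.31 and gave the greatest of these differences, 2.22 ± 0.20 (adjusted p = 1.72e-08). VEGFA gave 1.88 ± 0.60 (adjusted p = 0.0108) with 1 of 3 untranslated arrays well above background, and ANGPTL2, a proinflammatory relative, gave 0.79 ± 0.17. PDGFC (0.48 ± 0.11) and VEGFC (0.97 ± 0.13) lost their calls with 75th percentile scaling, at 0.42 (adjusted p = 0.0503) and 0.21 (adjusted p = 0.273). With all categories normalized together ANGPTL2 gave 1.29, PDGFC 0.99 and VEGFC 1.49.

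In the IGF axis, IGFBP5, an IGF-binding protein of the matrix, measured 12.51, 12.35 and 12.24 in the control untranslated pool and 15.02, 14.84 and 14.57 in the high pool. It was higher by 2.45 ± 0.20 (adjusted p = 2.6e-09). The growth factor IGF2 differed by -1.11 ± 0.14 (adjusted p = 1.43e-06), or -0.46 with all categories normalized together. IGFBP6, which binds IGF2 most tightly, differed by -0.44 ± 0.13, and this direction turned to 0.01 in that setting, while 75th percentile scaling gave -0.67. GDF5, a joint-forming BMP, was at least 1.17-fold higher in the high pool (adjusted p = 0.0192). Its direction turned with 75th percentile scaling and within slide 3. The call ended with normexp (adjusted p = 0.181), with dim probes tested (0.055), with the spread of only the arrays compared (0.144), and without control untranslated replicate 3 (adjusted p = 0.139) or control high replicate 1 (adjusted p = 0.0587) or 2 (adjusted p = 0.0506). The other 6 probes called lower were those of CCL15, CCL16, GDF7, IL32, TNFSF12 and WNT3A, between -1.97 and -0.95. All 6 lost their calls when all categories were normalized together, with differences between -1.11 (TNFSF12) and -0.21 (WNT3A) and adjusted p from 0.0556 (CCL15) to 0.536 (WNT3A). In that setting without OS low replicate 3, TNFSF12 (-1.14, adjusted p = 1.21e-06), CCL15 (-0.83, 0.0059) and GDF7 (-0.95, 0.0422) were called. IL32 (adjusted p = 0.0519), CCL16 (0.0747) and WNT3A (0.339) were still not called there. The CCL16 call is of probe A_33_P3292478. Its second probe, A_23_P207582, was well above background on no array of either pool and was not tested. WNT3A gave -1.75 with 75th percentile scaling, and normexp gave -0.95 for CCL15, -1.30 for TNFSF12 and -0.89 for GDF7 (adjusted p = 0.098). GDF7 also lost its call with dim probes tested (adjusted p = 0.0767) and without control high replicate 1 (adjusted p = 0.0563), 2 (0.0619) or 3 (0.0668), or control untranslated replicate 2 (0.101) or 3 (0.0841).

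**Figure D2:**
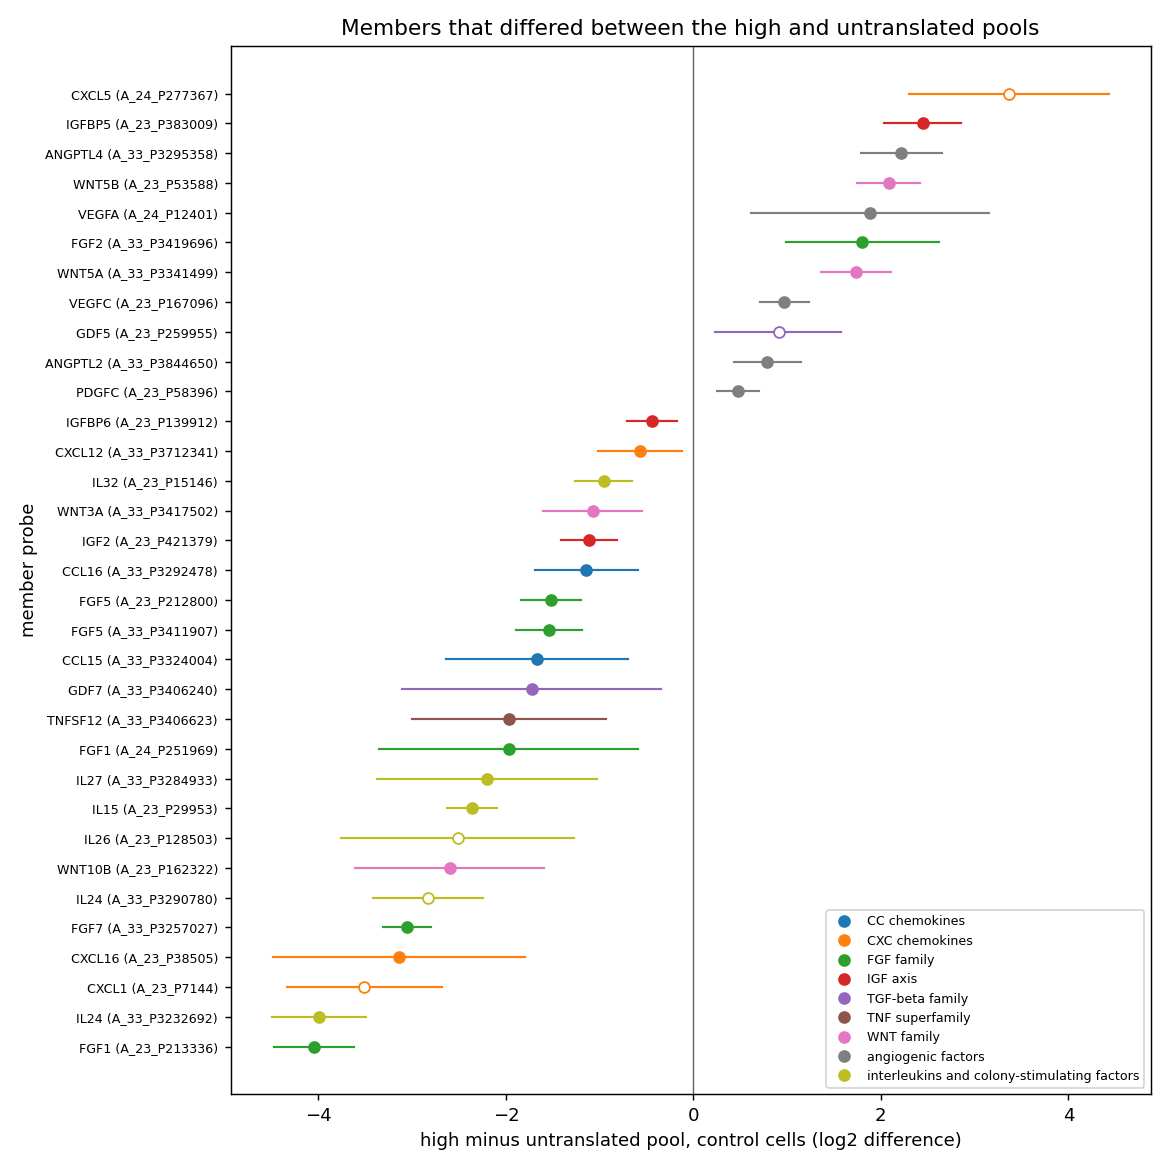
Difference between the high and untranslated pools of control cells for member probes (horizontal axis, log2; bars, 95% confidence intervals; open points, no array of 1 of the pools well above background). IGFBP5 at 2.45 and WNT5B at 2.09 lie to the right and FGF1 at -4.05 to the left; CXCL12 and IGFBP6 turned direction with all categories normalized together and GDF5 with 75th percentile scaling.

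OS effects in the untranslated and high pools share their control arrays with the comparison between pools of control cells. Their values are therefore given side by side and not as independent results. In the untranslated pool, FGF5, FGF7, IL15, TNFSF4 and PDGFC were among the members that fell upon OS, and IGFBP5, ANGPTL2 and WNT5A rose. TNFSF9 was called higher too, but entered the test through its OS arrays alone. Of 41 tested member probes, 4 were called higher and 8 lower, where 15.8% of 8025 mRNA probes were called higher and 15.7% lower. The medians were -0.13 over members and -0.04 over mRNA probes. Without OS low replicate 3 the counts were 5 and 12, with 47.8% of mRNA probes called. They were 3 and 7 when a probe had to be well above background in both groups. CXCL1, called lower, entered the test through its control arrays alone.

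FGF7 measured 11.44, 11.29 and 11.23 in the OS untranslated pool, all below the control arrays, which lay from 12.11 to 12.15. It fell by 0.81 ± 0.12 on the log2 scale (adjusted p = 7.33e-05), with -0.67, -0.83 and -0.92 within slides. FGF5 measured 12.29, 12.50 and 12.55 in control and 11.41, 11.50 and 11.51 in OS cells, and 2 of its 3 probes were called (-0.98 ± 0.15 and -1.01 ± 0.16), while A_24_P337239 was well above background on no array of either group and was not tested. IL15 measured 10.86, 10.97 and 11.00 upon OS, below its control values (-0.68 ± 0.12, adjusted p = 0.00057). TNFSF4, the ligand of the T-cell receptor OX40, measured 12.45, 12.35 and 12.54 against 11.85, 11.84 and 11.78 upon OS. The difference was -0.62 ± 0.10 (adjusted p = 0.000225). FGF1 was called on its brighter probe (-0.59 ± 0.20, adjusted p = 0.0403). A dimmer probe, A_24_P251969, measured 7.98, 8.21 and 8.32 in control and 6.73, 6.88 and 6.95 in OS cells, without overlap (-1.32 ± 0.65, adjusted p = 0.185). That probe passed the test without OS low replicate 3 (adjusted p = 9.81e-06) and with the spread of only the arrays compared (0.00324). The remaining FGF1 probe, A_33_P3242136, measured 5.96, 7.50 and 6.74 in control and 7.22, 6.45 and 5.90 upon OS, overlapped and was not tested there. The call of the brighter FGF1 probe was lost without control replicate 1 (adjusted p = 0.0855) or 3 (0.18), OS replicate 1 (0.206) or 2 (0.0516), and with 75th percentile scaling (0.0513). PDGFC measured 11.94, 11.69 and 11.57 against 11.30, 11.23 and 11.34, and differed by -0.44 ± 0.10 (adjusted p = 0.00305, or 0.0565 with 75th percentile scaling). The CXCL1 probe A_23_P7144 was not well above background on any OS untranslated array, which puts it at least 1.86-fold below control (adjusted p = 0.0235), though less than that bound with normexp. The CXCL1 call was lost without control replicate 1 (adjusted p = 0.127), OS replicate 2 (0.107) or OS replicate 3 (0.0512), with 75th percentile scaling (0.251), with all categories normalized together (0.0567), and with control arrays 1 and 2 averaged (0.0684). A second CXCL1 probe, A_33_P3330264, was well above background on 2 of 3 arrays of each group and was not tested there. It measured 6.63, 7.84 and 7.70 in control and 7.33, 6.76 and 7.05 in OS cells, and the groups overlapped. With dim probes tested the calls of FGF1 (adjusted p = 0.155) and CXCL1 (0.0845) ended, and with the spread of only the arrays compared those of FGF1 (0.0863) and PDGFC (0.0604).

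IGFBP5 measured 13.83, 13.81 and 13.68 in the OS untranslated pool, all above the control arrays. It rose by 1.41 ± 0.19 (adjusted p = 3.97e-05), with 1.49, 1.58 and 1.17 within slides. ANGPTL2 rose by 0.79 ± 0.17 (adjusted p = 0.002), from 11.90, 12.02 and 11.66 to 12.62, 12.62 and 12.71. WNT5A measured 13.23, 13.26 and 13.11 upon OS, again above every control array, and rose by 0.60 ± 0.17 (adjusted p = 0.018). The WNT5A call ended without OS replicate 1 (adjusted p = 0.0538) or 2 (0.0627) or control replicate 3 (0.0903), and with 75th percentile scaling (0.0718). TNFSF9 measured 8.62, 8.26 and 8.18 upon OS and was well above background on no control untranslated array. TNFSF9 entered this test through its OS arrays alone. It was at least 3.12-fold higher (adjusted p = 0.0148), though less than that bound with normexp (adjusted p = 0.0224). The call ended without OS replicate 1 (adjusted p = 0.0543) or control replicate 3 (0.0968), and without the latter the difference was also less than the bound. Testing dim probes ended the calls of TNFSF9 (adjusted p = 0.0547) and WNT5A (0.087).

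In the low pool, CXCL2, IL24 and ANGPTL2 were called higher upon OS and FGF5, FGF2 and TNFSF4 lower. These were 3 higher and 3 lower of 56 tested probes, where 4.42% of 10806 mRNA probes were called higher and 5.45% lower. The medians were -0.17 over members and -0.18 over mRNA probes, but 0.02 and -0.03 without OS low replicate 3, so their size depends on that array. With 75th percentile scaling the medians were 0.36 over members (0.13 without that array) and 0.01 over mRNA probes, and 7 members were higher and 4 lower. The mRNA probes called in that setting were 693 higher and 640 lower. With all categories normalized together the medians were -0.33 and -0.36, or -0.04 and -0.10 without that array. Counts with that array were 2 and 3 in this setting and 4 and 5 with normexp. Called mRNA probes numbered 342 higher and 749 lower in the former and 518 and 884 in the latter. Without OS low replicate 3 the member counts were again 3 and 3, with 10.6% of mRNA probes called, but only 3 probes were shared: those of CXCL2, FGF5 (A_23_P212800) and TNFSF4. ANGPTL2 (adjusted p = 0.0507), IL24 (0.0621) and FGF2 (0.0925) lost their calls, and TNFSF9, VEGFA and a second FGF5 probe gained one. The count was 0 without control low replicate 3 (10 at unadjusted p under 0.05), 2 without control low replicate 2, 12 without OS low replicate 1 and 18 without OS low replicate 2. When a probe had to be well above background in both groups, 2 members were higher and 3 lower. With the spread taken only from the 6 low-pool arrays, limma called 0 members (4 at unadjusted p under 0.05).

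CXCL2 in the low pool measured 5.80, 5.22 and 5.44 in control cells and 7.67, 7.00 and 7.04 upon OS. Every OS array was higher, by 1.88, 1.77 and 1.60 within slides and 1.75 ± 0.42 overall (adjusted p = 0.0157). The call was lost without control replicate 2 (adjusted p = 0.0724) or 3 (0.0616) and with all categories normalized together (1.29, adjusted p = 0.0978), and normexp gave 0.94. FGF2 measured 10.36, 10.64 and 10.56 in control cells and 9.84, 10.06 and 7.77 upon OS, the last on the array that stands apart. Its difference of -1.30 ± 0.39 was -0.58 without that array, and the call also ended without control replicate 1 (adjusted p = 0.0961), 2 (0.147) or 3 (0.14), with all categories together (0.0604), with no moderation (0.0546), with slide as a block (0.0562), with dim probes tested (0.116) and with control untranslated arrays 1 and 2 averaged (0.0524). ANGPTL2 measured 11.94, 11.83 and 11.53 in control cells and 12.53, 12.17 and 12.66 upon OS, higher on every OS array (0.69 ± 0.17). That call ended without control replicate 2 (adjusted p = 0.0523) or 3 (0.123), with 75th percentile scaling (0.0956) and with dim probes tested (0.0537). IL24 measured 8.38, 8.12 and 8.22 against 8.67, 9.10 and 9.84 upon OS, the highest on the array that stands apart (0.96 ± 0.24). Its call ended without control replicate 2 (adjusted p = 0.0835) or 3 (0.0735) and with dim probes tested (0.0513). FGF5 differed by -0.68 ± 0.16 (adjusted p = 0.0118; 0.0834 without control replicate 3) and TNFSF4 by -0.45 ± 0.12 (adjusted p = 0.0234). TNFSF4 lost its call without control replicate 1 (adjusted p = 0.0524) or 3 (0.142) and with dim probes tested (0.0663), and was -0.71 with 75th percentile scaling.

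In the high pool, FGF7, WNT11 and CXCL2 were called higher upon OS and no member was called lower. These were 3 higher and 0 lower of 49 tested probes by limma (7 higher and 0 lower at unadjusted p under 0.05, and 4 higher and 0 lower without moderation), where 3.57% of 10266 mRNA probes were called higher and 2.83% lower. The medians were 0.06 over members and -0.01 over mRNA probes. Leaving out OS low replicate 3 gave 7 higher and 0 lower, adding FGF20, IGFBP6, TNFSF9 and VEGFA, with 13.3% of mRNA probes called. The count was 1 when a probe had to be well above background in both groups, since WNT11 and CXCL2 entered the test through their OS arrays alone.

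WNT11, a ligand of beta-catenin-independent signalling, measured 3.66, 3.51 and 3.96 in the control high pool, on no array well above background, and 6.31, 5.70 and 6.27 upon OS, on all 3. It was at least 1.75-fold higher (adjusted p = 0.000634), though less than that bound with normexp (adjusted p = 0.0102). WNT11 was well above background on no array of either total RNA group, at 3.54, 3.44 and 3.47 in control cells and 5.00, 3.78 and 4.59 upon OS. CXCL2 measured 3.15, 4.26 and 3.22 in the control high pool, also not well above background, and 5.75, 5.69 and 6.58 upon OS. It was at least 1.65-fold higher (adjusted p = 0.000972), and with normexp it was less than that bound and not called (adjusted p = 0.0646). FGF7 measured 9.05, 9.18 and 9.00 in control cells and 9.52, 9.58 and 9.61 upon OS. The groups did not overlap, and the rise of 0.50 ± 0.13 (adjusted p = 0.0207) was 0.47, 0.40 and 0.62 within slides. The FGF7 call ended without control replicate 1 (adjusted p = 0.0835) or 3 (0.0906), OS replicate 2 (0.0614) or 3 (0.101), with 75th percentile scaling (0.13), with dim probes tested (0.0892) and with all categories normalized together (0.0506).

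The last comparison took the OS effect in the high pool less that in the untranslated pool, called the shift here. A positive value can come from either pool. The shift was positive for FGF7, FGF5, IL15 and TNFSF4 and negative for IGFBP5 and WNT5A. All 6 were called in the untranslated pool, and only FGF7 in the high pool. Single probes of CXCL1, CXCL2 and WNT11 passed the test with a positive sign, but with pools in which no array was well above background. Of 52 tested probes, 7 were called higher and 2 lower, where 8.04% of 10369 mRNA probes were called higher and 8.03% lower. The medians were 0.21 over members and 0.02 over mRNA probes. With normexp, 8 members were higher and 1 lower, and 882 mRNA probes were higher and 861 lower. Without OS low replicate 3 the counts were 12 and 3, with 31.1% of mRNA probes called in either direction. The 6 added were ANGPTL2, lower, and FGF1 (A_24_P251969), FGF5 (A_33_P3411907), IGFBP6, IL24 and IL32, higher. The total of 9 was 4 without OS high replicate 3, 5 without control high replicate 1, and 6 without control or OS untranslated replicate 2, OS untranslated replicate 3 or OS high replicate 2.

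FGF7 gave 1.30 ± 0.18 (adjusted p = 0.000164), with 1.14, 1.23 and 1.54 within slides. It was lower in the untranslated pool and higher in the high pool upon OS, while its total RNA value did not pass the test (0.14, adjusted p = 0.742). IL15 gave 0.87 ± 0.18 (adjusted p = 0.00571), with 0.74, 0.77 and 1.09 within slides, and its high-pool arrays measured 9.32, 9.33 and 9.13 in control cells and 9.38, 9.49 and 9.49 upon OS. TNFSF4 gave 0.64 ± 0.16 (adjusted p = 0.014), with 12.46, 12.46 and 12.62 in the control high pool and 12.46, 12.47 and 12.65 upon OS, the same within the spread. The TNFSF4 call was lost without OS high replicate 3 (adjusted p = 0.0502) and with 75th percentile scaling (0.0857). FGF5 gave 0.77 ± 0.22 (adjusted p = 0.0309) on its brighter probe. That probe had high-pool means of 10.93 in control cells and 10.72 upon OS, with overlap and no call, so the positive value is a smaller difference there than the fall in the untranslated pool. In total RNA it gave -0.41 without overlap (adjusted p = 0.14). For FGF5, leaving out any 1 of 9 of the 12 arrays ended the call, with adjusted p from 0.0535 (OS untranslated replicate 3) to 0.0998 (OS high replicate 3). Scaling to the 75th percentile ended it too (adjusted p = 0.0882). Testing dim probes ended the calls of FGF5 (adjusted p = 0.113) and TNFSF4 (0.0674).

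The CXCL1 probe A_23_P7144 passed the test (adjusted p = 0.0164), although 3 of the 4 groups behind it, both high pools and the OS untranslated pool, had no array well above background, so the size of its shift was not measured. The second probe, A_33_P3330264, on some arrays of each pool, was not tested and gave 0.42. The call of the first ended without OS high replicate 3 (adjusted p = 0.0564), with 75th percentile scaling (0.148) and with dim probes tested (0.0549). CXCL2 passed the test (adjusted p = 0.0486) with its control high pool on no array well above background, so this size was not measured either. That call was lost without any 1 of 9 of the 12 arrays, with adjusted p up to 0.138, and with normexp (adjusted p = 0.589). All categories together (adjusted p = 0.0544), no moderation (0.054), the replicate block (0.0532) and dim probes tested (0.144) ended it as well. So did averaged control untranslated arrays (0.116) and the spread of only the arrays compared (0.0938). WNT11 passed the test (adjusted p = 0.0113) with only its OS high pool well above background, so the size was not measured, and the call ended with normexp (adjusted p = 0.0552). IGFBP5 gave -1.11 ± 0.28 (adjusted p = 0.0157), with -0.94, -1.76 and -0.64 within slides, and the call ended without control high replicate 1 (adjusted p = 0.0527) or with dim probes tested (0.0579). WNT5A gave -0.83 ± 0.25 (adjusted p = 0.0453), with -0.68, -1.54 and -0.26 within slides. The WNT5A call was lost without any 1 of 9 of the 12 arrays (adjusted p from 0.0627 to 0.133) and with 75th percentile scaling (0.185), normexp (0.0646), dim probes tested (0.15), averaged control untranslated arrays (0.0519) and the spread of only the arrays compared (0.0859).

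Counts over the lists below can be set beside the shares of all tested mRNA probes called higher and lower: 3.07% and 3.06% in total RNA, 15.8% and 15.7% in the untranslated pool, 4.42% and 5.45% for light polysomes, 3.57% and 2.83% for heavy ones, 42.2% and 31% between pools of control cells, and 8.04% and 8.03% for the shift. Without OS low replicate 3, mRNA probes called higher and lower were 603 and 820 of 10630 in total RNA. They were 1786 and 2047 of 8025 in the untranslated pool and 635 and 508 of 10833 for light polysomes. Heavy ones gave 722 and 646 of 10266, pools of control cells 4688 and 3427 of 9880, and the shift 1732 and 1495 of 10369. No list was tested as a whole. Receptors for these ligands were read from a list of 81 genes, of which 50 were on the array with 66 probes. In total RNA 0 of 51 tested probes were higher and 1 was lower, TGFBR2, the type II receptor for TGF-beta, by -2.41 ± 0.52 (means 7.84 in control and 5.44 upon OS, adjusted p = 0.00494), and the median was -0.15. In the untranslated pool 13 of 37 were higher and 2 lower (median 0.40), in the low pool 3 of 49 higher and 1 lower (median -0.12), and in the high pool 1 of 47 higher and 0 lower (median 0.04). The high-pool receptor was TNFRSF25, a death-domain receptor, which rose by 1.44 ± 0.11 (adjusted p = 1.85e-07). In control cells 31 of 47 were higher in the high than in the untranslated pool and 8 lower (median 1.18). The shift upon OS was positive for 2 and negative for 7 of 47 (median -0.36). Among the 7 was IGF1R, the receptor of IGF1 and IGF2, at -1.42 ± 0.30 (adjusted p = 0.0057). Without the array that stands apart, the numbers higher and lower were 0 and 5 in total RNA, 18 and 3 in the untranslated, 2 and 1 in the low and 1 and 2 in the high pool, 34 and 9 between pools of control cells, and 2 and 11 for the shift.

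Secreted inhibitors and latency proteins were 25 genes, 13 of them on the array with 14 probes. Of 9 tested in total RNA 1 was higher and 2 lower (median -0.16), of 8 in the untranslated pool 3 and 1 (median 0.29), of 9 in the low pool 1 and 1 (median 0.12), and of 8 in the high pool 2 and 1 (median 0.24). Of 8 tested, 3 were higher and 2 lower in the control high pool than in the untranslated pool (median 0.12), and the shift was positive for 1 and negative for 1 (median -0.14). BAMBI, a decoy receptor for TGF-beta and BMP ligands, rose in total RNA by 0.85 ± 0.15 (adjusted p = 8e-04) and in the high pool by 1.11 ± 0.15. DKK1, an inhibitor of WNT signalling, was lower by -0.59 ± 0.17 in total RNA (adjusted p = 0.039) and by -1.16 ± 0.17 in the low pool (adjusted p = 0.000293). Leaving out the array that stands apart, the inhibitors higher and lower were 1 and 3 in total RNA, 3 and 1 in the untranslated, 1 and 1 in the low and 2 and 1 in the high pool, 3 and 3 between pools of control cells, and 1 and 2 for the shift.

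Signalling feedback genes were 32, of which 11 were on the array with 12 probes, all tested. In total RNA 3 were higher and 2 lower (median 0.24), in the untranslated pool 2 and 3 (median 0.01), in the low pool 2 and 2 (median 0.06), and in the high pool 4 and 3 (median 0.10). In control cells 5 were higher and 5 lower in the high pool than in the untranslated pool (median 0.05), and the shift was positive for 3 and negative for 1 (median 0.36). SPRY2, an inhibitor of FGF and EGF receptor signalling, rose in total RNA by 1.55 ± 0.16 (adjusted p = 2.9e-06), and SOCS3, which restrains cytokine receptors of the IL-6 type, rose by 0.77 ± 0.16 (adjusted p = 0.0037). ID1 and ID3, targets of BMP signalling, were lower, at -1.01 ± 0.18 and -0.85 ± 0.15. RELB, an NF-κB subunit, had a negative shift, -1.15 ± 0.21 (adjusted p = 0.0017). The feedback genes higher and lower without OS low replicate 3 were 4 and 2 in total RNA, 2 and 3 in the untranslated, 2 and 2 in the low and 4 and 4 in the high pool, 5 and 5 between pools of control cells, and 3 and 1 for the shift.

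Regulators of AU-rich elements and decay were 15 genes, of which 8 were on the array with 11 probes. In total RNA 1 of 11 was higher and 0 lower (median -0.24), in the untranslated pool 1 of 10 higher and 2 lower (median -0.31), in the low pool 1 of 11 higher and 3 lower (median -0.67), and in the high pool 1 of 11 higher and 0 lower (median 0.04). In control cells 8 of 11 were higher in the high pool and 2 lower (median 1.03), and the shift was positive for 3 and negative for 0 (median 0.08). ZFP36, which binds AU-rich elements and hastens decay of cytokine transcripts, was the probe that rose in total RNA and in the high pool. It rose by 1.12 ± 0.19 in total RNA (means 12.06 and 13.18, adjusted p = 0.000483) and by 2.08 ± 0.18 in the high pool (adjusted p = 6.41e-07), and its shift was 2.47 ± 0.26 (adjusted p = 1.41e-05). Both probes of its relative ZFP36L1 had positive shifts, 0.74 ± 0.19 and 0.82 ± 0.18. The decay regulators higher and lower without OS low replicate 3 were 1 and 1 in total RNA, 2 and 4 in the untranslated, 1 and 3 in the low and 1 and 1 in the high pool, 8 and 2 between pools of control cells, and 4 and 1 for the shift.

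Other ligands that the naming rule did not take were 36 genes, of which 20 were on the array with 26 probes. In total RNA 1 of 20 was higher and 2 lower (median 0.28), in the untranslated pool 3 of 14 and 4 (median -0.21), in the low pool 0 of 20 and 5 (median -0.10), and in the high pool 1 of 20 and 2 (median 0.38). In control cells 8 of 18 were higher and 5 lower in the high pool (median 0.79), and the shift was positive for 2 and negative for 0 of 20 (median 0.12). CYR61, a matricellular protein, was lower in total RNA (-1.28 ± 0.20, adjusted p = 0.000311) and in the low pool (-2.63 ± 0.20, adjusted p = 2.1e-07). EDN1, the precursor of the vasoconstrictor endothelin-1, was lower by -1.37 ± 0.22 in total RNA (adjusted p = 0.000366) and by -2.50 ± 0.22 in the low pool. GDNF, a neurotrophic factor, was the probe called higher in total RNA, by 1.29 ± 0.34 (adjusted p = 0.0204). The other ligands higher and lower without OS low replicate 3 were 4 and 2 in total RNA, 3 and 5 in the untranslated, 2 and 5 in the low and 6 and 2 in the high pool, 10 and 5 between pools of control cells, and 5 and 1 for the shift.

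Markers of cell types were tested too. None of the 4 fibroblast markers was called in total RNA by limma, while in the untranslated pool COL1A1 and COL3A1 were higher (median of the 4, 0.99), in the low pool COL1A1, and in the high pool COL1A1 and THY1. Their shift was negative for 2 and positive for 1, and in the control high pool 3 of 4 were higher than in the untranslated pool. Of 6 epithelial markers 3 were on the array and 1 was tested in total RNA, CLDN4, a tight-junction protein, with means of 9.08 in control and 10.31 upon OS (adjusted p = 0.196). Of 5 endothelial markers 3 were on the array and CDH5 was tested, at 6.37 and 6.13 (adjusted p = 0.972). Of 7 leukocyte markers only PTPRC was on the array, and its 1 tested probe measured 6.28 and 6.05 (adjusted p = 0.974). All 3 smooth muscle markers were on the array, with CNN1 at 15.41 and 15.49 in total RNA (adjusted p = 0.963). In control cells CLDN4 and CNN1 were higher in the high than in the untranslated pool and PTPRC and DES lower. Upon OS, CNN1 was higher in the untranslated pool, and MYH11 in the low pool only with OS low replicate 3 included. Leaving that array out added LUM and CLDN4 as higher in the untranslated pool and COL3A1 in the low pool.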

How the data were processed

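The arrays were one-colour Agilent arrays of lncRNA and mRNA probes, scanned by the authors with Feature Extraction 10.7.3.1 against GRCh37. The deposited intensity values are background-corrected processed signals per spot, on a linear scale. The deposited log2 table of the authors differs by at most 0.0014 from quantile normalization of all probes (column medians 4.474), and was used as a check. Here log2 of the processed signal was quantile normalized separately for mRNA and lncRNA probes, after 178 spots marked as outliers were left out (none of a member). No spot was saturated. Only probes were tested that all arrays of 1 or more of the groups in a comparison showed well above background. limma 3.58.1 in R 4.3.3 fitted 24 arrays in 8 groups, with Benjamini-Hochberg adjustment over all tested mRNA and lncRNA probes and a threshold of 0.05. The code was tested on simulated data. The number of arrays limits the precision. The p-values measure the spread between arrays of one line, which the methods describe as independent RNA preparations.

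Probes of one gene were kept apart, the one with the highest mean first. Current symbols were matched for 99 of 103 probes by RefSeq accession. Values on each array are given for members that the results turn on, from factors often described in fibroblasts and members past the threshold. Members and lists were chosen with earlier results of these data known. Alternatives were normalization of all probes together, 75th percentile scaling, normexp (offset 50), other filters on dim probes, replicate and slide blocks, no moderation, each array left out, and the mean of control untranslated arrays 1 and 2, whose labels share a number and which were kept as 2 samples. Scaling without OS low replicate 3 and the spread of only the arrays compared were chosen after seeing the data. The study's methods say that anomalous replicates were removed, without naming them.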

Additional observations from a re-analysis of the deposited data

Results flagged for a closer look

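The test of the difference between the OS effects in the high and the untranslated pool, made in limma, flagged 9 member probes, and for 6 of them all 4 groups were measured. The difference (log2, high less untranslated) was 1.30 for FGF7 (adjusted p = 0.000164), 0.87 for IL15 (0.00571), 0.77 for FGF5 (0.0309) and 0.64 for TNFSF4 (0.014). IGFBP5 gave -1.11 (0.0157) and WNT5A gave -0.83 (0.0453). The others were WNT11 (2.32, 0.0113), CXCL1 (2.19, 0.0164) and CXCL2 (1.93, 0.0486), each with at least 1 of the 4 groups on no array well above background, so their values include background and do not measure a differing OS effect. With dim probes tested, only FGF7, IL15 and WNT11 of the 9 passed (CXCL1 adjusted p = 0.0549, CXCL2 0.144). Groups of 3 arrays were not tested for single arrays apart from the rest.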

How the results depend on the processing

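Of 68 member results, 65 of them called, 31 kept their direction and their side of the threshold in every setting tried. The slide block changed 1 of the 68 and no moderation 2, while 75th percentile scaling weakened 13 and turned 1, normalization of all probes together weakened 12 and turned 2, and testing dim probes weakened 19. In control cells (high less untranslated pool) 3 directions turned: CXCL12 to 0.37 and IGFBP6 to 0.01 with all probes together (0.38, called higher at adjusted p = 0.0214, and 0.01 without OS low replicate 3), and GDF5 to -0.22 with 75th percentile scaling, with or without that array. The count of called members moved as follows. In total RNA (2) it was 1 with probes above background in both groups, 5 without OS low replicate 3 and 6 with either other scaling without it. In the low pool (6) it was 11 with 75th percentile scaling and 2 with dim probes tested. In the high pool (3) it was 1 with probes above background in both groups, 7 without OS low replicate 3 and 6 with either other scaling without it. For the shift (9) it was 3 with dim probes tested, 15 without OS low replicate 3, and 16 and 15 with 75th percentile scaling and all probes together without it. With the spread of only the arrays compared, 12 were called in total RNA, 0 by limma in the low pool (4 at unadjusted p under 0.05) and 5 in the high pool. Shares of all mRNA probes are not given for this setting. The cause was not tested. Leaving out, in turn, each array of the groups compared gave 0 to 2 in total RNA (0 by limma without OS total replicate 3, 8 at unadjusted p under 0.05), 9 to 12 in the untranslated, 0 to 18 in the low and 2 to 3 in the high pool, 30 to 34 in control cells and 4 to 11 for the shift. The labels give the groups the same replicate numbers, and the correlations of same-numbered deviations ran from -0.32 to 0.38. With 3 arrays per group these cannot decide whether the numbers pair the samples. The study's methods divide gradient fractions into the 3 pools and repeat the procedure 3 times, so pools may be paired. The main fit does not use a pairing. With the replicate block the counts were 3, 12, 7, 3, 35 and 9 for total RNA, untranslated, low and high pools, control cells and the shift. That block ended the CXCL2 shift call (adjusted p = 0.0532) and brought TNFSF9 in total RNA past the threshold (0.0392). Signal over background limits the dim members: 27 of 103 probes were on none of the other 23 arrays. Control untranslated arrays 1 and 2 differed by an SD of 0.938 over probes, as much as the other pairs (0.995 and 0.929).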
